A study of Mus musculus with 24 samples.

Results

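Metallothioneins and their zinc regulators were followed in 3T3-L1 cells with 4 genes: Mt1 and Mt2, which encode metallothioneins, Mtf1, which encodes the zinc-sensing transcription factor MTF1, and Slc30a1, which encodes the zinc exporter ZnT1. They are 4 of the 26995 gene symbols in the count tables, and for each the 3′UTR entry that averaged the most total reads was used. Mt1 and Mt2 were chosen by their labelled reads, that is, reads taken as newly made RNA. In these they head the ranking by how far the ML-792 effect depends on the day. Their labelled reads are therefore given as a description without a test, and tests for them come from the total reads. Slc30a1 and Mtf1 were added for their place in the zinc response.

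3T3-L1 is a mouse embryonic fibroblast line whose cells, pre-adipocytes, become fat cells once induced with hormones. Cells in DMSO, the control, and cells in medium with 0.5 µM ML-792, an inhibitor of the SUMO-activating enzyme SAE1/2, were collected at days −2, 1, 3 and 7 around induction. The 8 conditions had 3 replicates each, named A, B and C, which makes 24 libraries. Day −2 cells had not been induced. The induction medium held insulin at 10 µg/ml, 3-isobutyl-1-methylxanthine at 0.5 mM, fetal bovine serum at 10% and dexamethasone, a glucocorticoid, at 1 mM as the labels give it, and from day 3 insulin and serum alone remained. In every condition new RNA was labelled with 100 µM 4-thiouridine for 45 min before lysis. The model is a single cell line and a single inhibitor at a single dose, and how long ML-792 had been present before each collection is not given in the labels. The titles write the first time point as 2, which was read as day −2 from the study's design.

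Metallothioneins are small cysteine-rich proteins that bind zinc and copper and buffer the free zinc of the cell. When free zinc rises, MTF1 binds metal response elements in the promoters of Mt1, Mt2 and Slc30a1, so that more zinc is buffered and more is exported. Mt1 and Mt2 are also known to respond to glucocorticoids and oxidants, and both are expressed in fat cells.

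QuantSeq reads come from the 3′ end of polyadenylated RNA. Among the same reads, SLAMseq counts those with T to C conversions as labelled, that is, taken as newly made. Summed over all 3′UTR entries, the libraries held 13554718 to 27013352 total reads and 115709 to 820046 labelled reads. With 1 entry counted per gene, the total reads were 9118951 to 18306796. Over all entries, labelled reads made up 2.68 to 3.68% of a library at day −2 and 0.802 to 1.36% at the later days. Levels are given as normalized reads, which are counts scaled to the mean library size. Changes are log2 fold changes ± SE from edgeR's quasi-likelihood test. That test returns no SE, so it was computed as the size of the change divided by the square root of its F statistic. P-values were adjusted by Benjamini-Hochberg over all tested 3′UTR entries. Changes were called at an adjusted p under 0.01 over time and under 0.1 for ML-792. Of all entries, 26563 were tested in total reads and 10589 in labelled reads. Where libraries are said not to overlap, this is a description. The share of all entries that separate in that way was not counted. The study's methods call the replicates biological, and neither they nor the labels say whether these were separate cultures, so p-values measure the spread between these samples.

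All 7 adipocyte markers and all 6 fibroblast markers were detected in every condition. The summed normalized level of the adipocyte markers went from 21939 to 23420 in DMSO at day −2 to between 640072 and 727970 at day 7. Markers of other cells were low in all libraries: the 3 macrophage markers summed to at most 66.6 normalized reads, the 3 epithelial markers to at most 35.5 and the 3 endothelial markers to at most 19.6. Of the macrophage markers Ptprc and Adgre1 were at or under 10 in every condition, and Csf1r had means of 39.7 and 31.6 at day −2 in DMSO and ML-792. Of the epithelial markers Epcam and Cdh1 were at or under 10 in every condition, and Krt18 had a mean of 26.2 in DMSO at day 7. Because these are bulk samples, fewer cells of a type and less RNA per cell cannot be told apart.

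In genome build mm10 (GRCm38.p6) the counted entry of Mt2 lies on chromosome 8 at 94173428 to 94173567 (140 bases, 40 T) and that of Mt1 at 94180194 to 94180327 (134 bases, 35 T). Their transcription starts are 6471 bases apart on the plus strand, and in both genes the entry is the 3′UTR part of the last exon, which is exon 3 of 3 in the curated transcripts. The Mt1 entry is listed under a predicted transcript of 2 exons that ends at the same base. The Slc30a1 entry lies on chromosome 1 at 191909756 to 191913247 in exon 2 of 2, and the Mtf1 entry on chromosome 4 at 124844344 to 124849800 in exon 11 of 11, both on the plus strand as well. The metallothionein entries are short beside the median of 803 bases over the tested entries. All 12 windows of 24 bases read along the Mt1 entry occur once in the genome, whereas 4 of 12 along the Mt2 entry occur elsewhere too, so that some Mt2 reads may have had more than 1 place to map. The longest run of bases that the Mt1 and Mt2 entries share is 10.

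The metal response element core, searched as TGCACNC or TGCGCNC on both strands, occurs 4 times in the Mt2 promoter, 3 times in that of Mt1 and 2 times in that of Slc30a1. These promoters are RefSeq windows of 300 bases, most of them upstream of the start site, and the Mtf1 window holds no match. Some matches lie downstream of the start site used: those of Mt1 at bases 3 to 9 and 21 to 27, that of Mt2 at 5 to 11 and that of Slc30a1 at 31 to 37. The other metal response elements lie upstream, and sequence beyond the windows was not searched. The counts thus hold for these windows and start sites alone. They do not compare the genes by their whole promoters, and a missing match means none in the window. Among all 32851 promoters of this length, 25.7% hold at least 1 match, 7.11% at least 2, 1.97% at least 3 and 0.517% at least 4. The antioxidant response element core, searched as TGACNNNGC on both strands, occurs 1 time each in the Mt2 and Slc30a1 promoters and in 12.4% of all promoters, and no match overlaps another. The windows around each match are shown because MTF1 is known to find its targets by metal response elements, and factors of the oxidant response theirs by antioxidant response elements. They are plus-strand sequence in RefSeq build GRCm38.p6, written 5′ to 3′, with the match in capitals. A match on the minus strand therefore appears as its reverse complement.
Mt1 metal response element, chr8:94179055-94179084: cggtcccgctgTGCACACtggcgctccagg
Mt1 metal response element, chr8:94179080-94179109: ccagggagctcTGCACTCcgcccgaaaagt
Mt1 metal response element, chr8:94179098-94179127: cgcccgaaaagTGCGCTCggctctgccaag
Mt2 metal response element, chr8:94172384-94172413: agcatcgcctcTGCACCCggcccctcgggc
Mt2 metal response element, chr8:94172479-94172508: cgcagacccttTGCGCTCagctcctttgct
Mt2 antioxidant response element, chr8:94172529-94172558: aaagggggtgTGACTCAGCgcggggggtgg
Mt2 metal response element, minus strand, chr8:94172557-94172586: ggggggagggcGTGTGCAggctctgtccca
Mt2 metal response element, minus strand, chr8:94172611-94172640: gaattcgggtcGTGCGCAggcccaggggcg
Slc30a1 antioxidant response element, minus strand, chr1:191906689-191906718: gggcaccgggGCCTTGTCAcgctcgggtcc
Slc30a1 metal response element, minus strand, chr1:191906727-191906756: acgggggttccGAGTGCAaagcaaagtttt
Slc30a1 metal response element, minus strand, chr1:191906800-191906829: gcctccgggccGAGCGCAgtcgccgcggac

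The first question was how total metallothionein mRNA moved during differentiation without inhibitor. Mt1 and Mt2 mRNA rose as the control cells differentiated and were highest at day 7, where the mean of Mt1 was 6.78 times and that of Mt2 11.7 times its day −2 mean. Together they took 0.228 to 0.355% of the reads of a control library at day −2 and 2.10 to 2.35% at day 7, with 1 entry counted per gene. The rise was uneven over the days, and the largest step lay between days 3 and 7.

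Mt1 stood at 33862, 19188 and 34596 normalized reads at day −2 in replicates A, B and C, and at 51523, 38034 and 57522 at day 1. It stood at 62011, 52743 and 67454 at day 3 and at 177271, 229327 and 188054 at day 7. All libraries of each later day lay above all 3 of day −2, and the day 7 libraries above those of every other day. Against day −2, its value at day 1 did not pass (0.75 ± 0.23, adjusted p = 0.0303). Mt1 rose by 1.06 ± 0.23 by day 3 (adjusted p = 0.00182) and by 2.76 ± 0.25 by day 7 (adjusted p = 2.32e-07). From day 3 to day 7 Mt1 rose by 1.71 ± 0.24 (adjusted p = 0.000148). Without replicate B, the day 1 value was called (adjusted p = 0.00056), and the day 3 call was lost without A (0.0314) or C (0.0209), as was the call from day 3 to day 7 without A (0.0160). Calls over all entries moved likewise. At day 1, 3642 entries became 855, 4828 and 1445 without A, B and C. At day 3, 8108 became 4018, 9056 and 4672, and from day 3 to day 7, 2330 became 426, 3077 and 725.

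Mt2 stood at 9977, 7740 and 9360 normalized reads at day −2, at 20073, 19598 and 22408 at day 1, at 31011, 26242 and 28584 at day 3, and at 105240, 102249 and 109823 at day 7. The 4 days did not overlap at all, and each lay above the one before it. Mt2 rose by 1.20 ± 0.16 on the log2 scale at day 1 (adjusted p = 6.4e-05), by 1.66 ± 0.16 at day 3 (adjusted p = 7.98e-07) and by 3.55 ± 0.18 at day 7 (adjusted p = 4.73e-10), each against day −2. From day 3 to day 7 the rise was 1.89 ± 0.16 (adjusted p = 1.94e-06). The day 1 call was lost without replicate A (adjusted p = 0.0134) or C (0.01005).

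Read against all tested entries, 1 of the 4 genes was called at day 1 (Mt2), where 13.7% of entries were called in either direction. At day 3 it was 3 of 4 (Mt1, Mt2 and Mtf1) beside 30.5%, and at day 7 again 3 of 4 (Mt1, Mt2 and Slc30a1) beside 32.6%. Between days 3 and 7, 2 of the 4 were called (Mt1 and Mt2) beside 8.77%. The median log2 fold change over all entries lay between −0.06 and 0.01 in these comparisons.

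**Figure D1:**
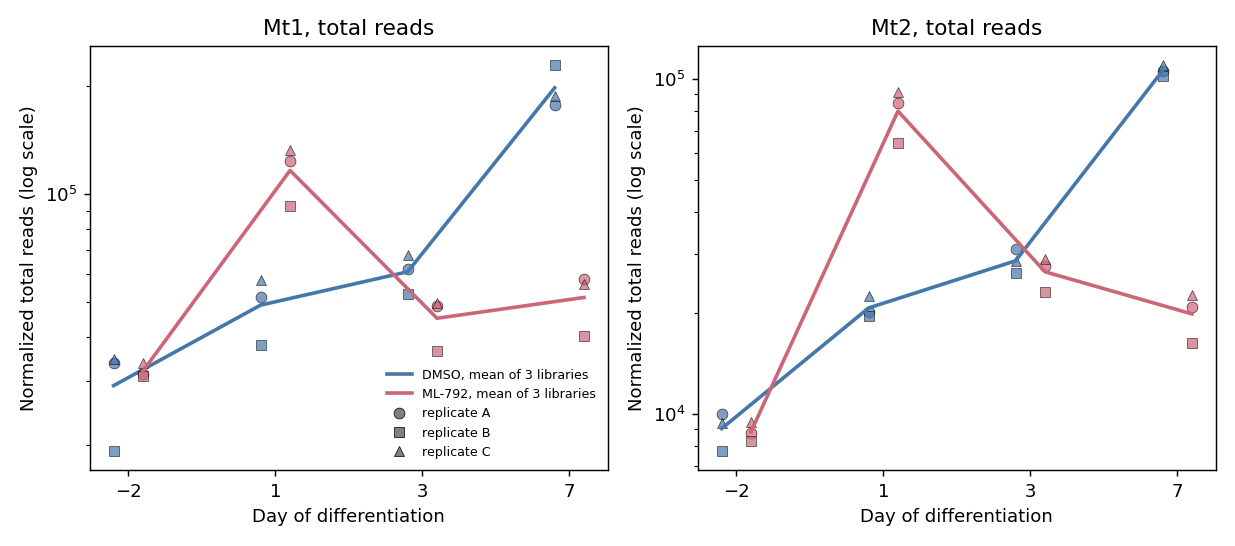
Normalized total reads of Mt1 and Mt2 (log axis) by day in DMSO and ML-792, where each point is a library and each line joins the means of 3 replicates. In DMSO both genes were highest at day 7, whereas in ML-792 both were highest at day 1, where Mt1 lay between 92744 and 133298 and Mt2 between 64128 and 91623.

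With ML-792 in the medium the peak lay at day 1 instead of day 7. Mt2 at day 1 was 9.06 times and Mt1 3.63 times its day −2 mean, and both then fell by day 3. The share of library reads taken by the pair was 1.48 to 1.86% at day 1 and 0.440 to 0.578% at day 7.

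Mt1 in ML-792 stood at 31452, 30999 and 33884 normalized reads at day −2, at 123737, 92744 and 133298 at day 1, at 48873, 36459 and 49802 at day 3, and at 58099.6, 40105 and 56287 at day 7. The day 1 libraries lay above those of all other days, and days 3 and 7 overlapped. Mt1 rose by 1.86 ± 0.22 on the log2 scale from day −2 to day 1 (adjusted p = 5.57e-07) and fell by 1.37 from day 1 to day 3 (SE 0.22, adjusted p = 2.69e-05). Against day −2, the values of 0.49 ± 0.22 at day 3 (adjusted p = 0.0676) and of 0.68 ± 0.22 at day 7 (adjusted p = 0.0121) did not pass. All libraries of both days lay above those of day −2. The day 7 value passed under 5 of its 8 alternatives, among them without replicate B (adjusted p = 3.39e-06), and the day 3 value under 2 of 8, without B (adjusted p = 0.000132) and with the replicate letter as a block (adjusted p = 0.00959).

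Mt2 in ML-792 stood at 8775, 8277 and 9467 normalized reads at day −2, at 84602, 64128 and 91623 at day 1, at 27597, 23128 and 28881 at day 3, and at 20775, 16235 and 22567 at day 7. No day overlapped another. Mt2 rose by 3.18 ± 0.17 on the log2 scale to day 1 (adjusted p = 1.46e-12), fell by 1.59 from day 1 to day 3 (SE 0.16, adjusted p = 3.84e-08) and was above day −2 by 1.59 ± 0.16 at day 3 (adjusted p = 1.68e-08) and by 1.17 ± 0.16 at day 7 (adjusted p = 1.54e-06). The difference between days 7 and 3 was −0.42 ± 0.16 (adjusted p = 0.0667).

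In ML-792, 2 of the 4 genes were called at day 1 against day −2 (Mt1 and Mt2), where 20.5% of all entries were called. At day 3 it was 2 of 4 (Mt2 and Mtf1) beside 35.2%, and at day 7 it was 1 of 4 (Mt2) beside 35%. Between days 1 and 3, 2 of 4 fell (Mt1 and Mt2) beside 21% called in either direction, and between days 3 and 7 the background was 11.5%.

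The second question was how ML-792 differed from DMSO on the same day. At day 1 both metallothionein mRNAs were higher with the inhibitor, at day 7 both were lower, and at day −2 and day 3 neither difference passed. At day 1 the mean of Mt2 was 3.87 times and that of Mt1 2.38 times the DMSO mean. At day 7 the DMSO mean was 5.33 times the ML-792 mean for Mt2 and 3.85 times for Mt1.

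At days 1 and 7 the 3 ML-792 libraries and the 3 DMSO libraries did not overlap for either gene. Mt2 differed from DMSO by 1.95 ± 0.16 on the log2 scale at day 1 (adjusted p = 3.72e-08) and by −2.41 ± 0.17 at day 7 (adjusted p = 1.84e-09). Mt1 differed by 1.25 ± 0.22 at day 1 (adjusted p = 0.000621) and by −1.94 ± 0.22 at day 7 (adjusted p = 2.09e-06). Without replicate A, the Mt1 difference at day 1 was 1.24 and no longer called (adjusted p = 0.107). At day 3 the differences were −0.43 ± 0.22 for Mt1 (adjusted p = 0.271) and −0.11 ± 0.16 for Mt2 (adjusted p = 0.8). The Mt1 libraries did not overlap at day 3, those in ML-792 being lower, and this difference was called with the replicate letter as a block (adjusted p = 0.0453) and without replicate B (adjusted p = 0.0214). At day −2 the libraries of the treatments overlapped, and the differences were 0.14 ± 0.21 for Mt1 and −0.03 ± 0.16 for Mt2 (adjusted p = 1 for both).

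Of the 4 genes, 2 were called at day 1 (Mt1 and Mt2, both higher) where 6.55% of entries were called in either direction, and 3 at day 7 (Mt1, Mt2 and Slc30a1, all lower) where 9.6% were called. At day 3 the background was 12.9%. At day −2 it was 0%: edgeR called 0 of 26563 entries and DESeq2 also 0, with 348 entries at an unadjusted p under 0.05 in edgeR. The comparisons of day 7 in ML-792 with DMSO and of day 7 with day −2 in DMSO share the 3 DMSO day 7 libraries, which hold the highest metallothionein levels of the study.

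The cell markers moved as well at day 7. The adipocyte markers summed to 842868 to 917804 normalized reads in ML-792 and 640072 to 727970 in DMSO, all 7 above 10 in both. The fibroblast markers summed to 44621 to 63701 in ML-792 and 25260 to 37891 in DMSO. At day 1 the adipocyte markers summed to 32216 to 39163 in ML-792 and 38416 to 41672 in DMSO, and the fibroblast markers to 102807 to 162702 and 172880 to 196310. Of the adipocyte markers at day 1 only Lpl had a lower mean in ML-792 (29686 against 37131 in DMSO), and the other 6 had higher means, such as Fabp4 (3641 against 1745). Of the fibroblast markers at day 1 Pdgfra and Thy1 had higher means in ML-792 and the other 4 lower. At day 7 Retn was the adipocyte marker with a lower mean in ML-792 (18749.8 against 22177 in DMSO) and Dlk1 the fibroblast marker with a lower mean (1483 against 3109). The part of these markers in the metallothionein differences was not tested.

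The dependence of the ML-792 effect on the day was itself tested. In total reads the F-test of the interaction gave an adjusted p of 7.74e-10 for Mt2 and 2.08e-06 for Mt1, and 9.66% of all entries were called. These reads come from the same libraries as the labelled reads that chose both genes, so they are another readout and not independent samples, and the labelled reads are a small part of them. Relative to the effect at day −2, the ML-792 effect on Mt2 was higher by 1.98 ± 0.22 at day 1 (adjusted p = 1.76e-05) and lower at day 7 (−2.38 ± 0.23, adjusted p = 7.51e-07). For Mt1 the terms were 1.11 ± 0.30 at day 1 (adjusted p = 0.0827) and, with the other sign, −2.08 ± 0.31 at day 7 (adjusted p = 0.000259). The Mt1 term of day 1 was not called without replicate A (adjusted p = 1) or C (adjusted p = 0.694). At day 3 the terms were −0.08 for Mt2 (adjusted p = 0.962) and −0.57 ± 0.30 for Mt1 (adjusted p = 0.475). The terms of day 1 and day 7 were called in 1.83% and 3.24% of entries. Taken over 13331 genes by this F-test in total reads, Mt2 stood at rank 1, Mt1 at rank 43, Slc30a1 at rank 4295 and Mtf1 at rank 12167.

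Placed in order over the 8 conditions, the mean of Mt1 was highest in DMSO at day 7 (198217 normalized reads), then in ML-792 at day 1 (116593), and neither overlapped with its neighbour. DMSO at day 3 (60736), ML-792 at day 7 (51497), DMSO at day 1 (49026) and ML-792 at day 3 (45044) followed, each overlapping with the next. The lowest were ML-792 (32112) and DMSO (29216) at day −2, which overlapped with each other and not with the rest. For Mt2 the order began in the same way, with DMSO at day 7 (105771) and ML-792 at day 1 (80118). It went on with the overlapping pair of DMSO (28612) and ML-792 (26536) at day 3, then the overlapping pair of DMSO at day 1 (20693) and ML-792 at day 7 (19859), and ended with DMSO (9026) and ML-792 (8839) at day −2, which overlapped too. Replicate B was the lowest of the 3 replicates in 8 of 8 conditions for Mt2 and in 7 of 8 for Mt1, where it was the highest in the eighth, DMSO at day 7.

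The balance of Mt2 to Mt1 reads moved with treatment and day. In DMSO the ratio of Mt2 to Mt1 total reads was 0.271 to 0.403 at day −2, 0.390 to 0.515 at day 1, 0.424 to 0.500 at day 3 and 0.446 to 0.594 at day 7. In ML-792 it was 0.267 to 0.279 at day −2, 0.684 to 0.691 at day 1, 0.565 to 0.634 at day 3 and 0.358 to 0.405 at day 7. The ML-792 libraries thus lay above those of DMSO at days 1 and 3, below them at day 7, and within their range in part at day −2. The ratio is a description without a test, and it is not a ratio of molecules, since the entries differ in length and in how uniquely their reads map.

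**Figure D2:**
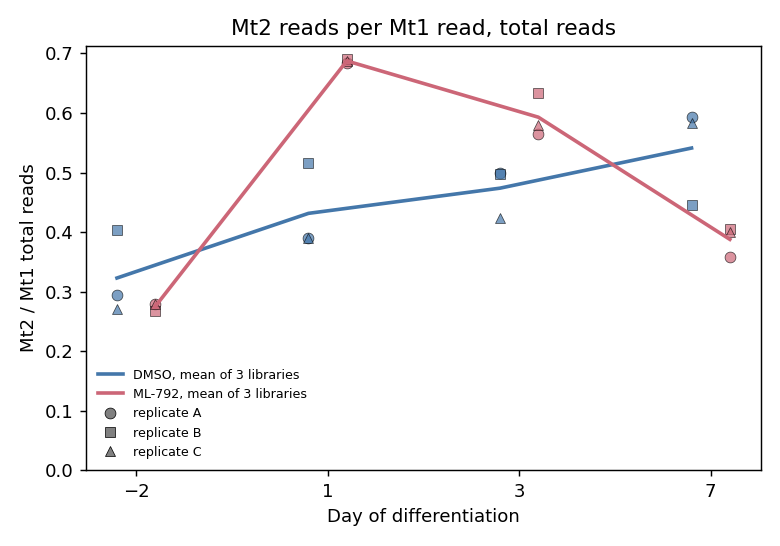
Ratio of Mt2 to Mt1 total reads in each library (points) by day in DMSO and ML-792, with lines through the means. In ML-792 the ratio was highest at day 1, between 0.684 and 0.691, and in DMSO at day 7 it lay between 0.446 and 0.594.

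Labelled reads are taken as the metallothionein RNA made in the 45 min before lysis. Since these values chose Mt1 and Mt2, they are given with no test. All libraries had received 4-thiouridine, so reads with conversions from other sources, such as sequencing errors, were not measured. Their part is unknown also at the later days, where labelled reads made up 0.802 to 1.36% of a library. Mt1 labelled reads, normalized with the factors of the total reads, were 1582, 809 and 1873 in DMSO at day −2, 514, 490 and 605 at day 1, 705, 507 and 834 at day 3, and 1865, 2153 and 2111 at day 7. In ML-792 they were 1407, 1186 and 1371 at day −2, 858, 767 and 1081 at day 1, 629, 432 and 540 at day 3, and 726, 488 and 649 at day 7. In DMSO day 1 lay below day −2 without overlap (the day −2 mean was 2.65 times that of day 1), a step in which the median over all labelled entries was −1.27 on the log2 scale and in which Mt1 had −0.11 when labelled reads were scaled by themselves. There day 7 overlapped with day −2, and the ML-792 libraries lay above DMSO at day 1 and below it at day 7 without overlap. The ML-792 mean was 1.68 times the DMSO mean at day 1, and the DMSO mean was 3.29 times that of ML-792 at day 7.

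Labelled reads of Mt2 were 715, 385 and 701 in DMSO at day −2, 211, 206 and 258 at day 1, 478, 307 and 430 at day 3, and 1397, 1144 and 1529 at day 7. In ML-792 they were 508, 433 and 552 at day −2, 633, 477 and 680 at day 1, 351, 275 and 389 at day 3, and 396, 277 and 422 at day 7. The treatments did not overlap at days 1 and 7 and overlapped at days −2 and 3. The ML-792 mean was 2.65 times the DMSO mean at day 1, and the DMSO mean was 3.72 times that of ML-792 at day 7. Labelled Mt2 and Mt1 stood at ranks 1 and 2 of 6434 genes in the interaction F-test, which is the ranking that chose them, and the next were Cav1, Rgs2 and Slc6a6. In that test 0.246% of labelled entries were called. Slc30a1 stood at rank 1302 and Mtf1 at rank 1765.

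The share of a gene's reads that were labelled relates new RNA to the RNA present. For Mt1 it was 4.67, 4.22 and 5.41% in DMSO at day −2 and 0.998, 1.29 and 1.05% at day 1, with 0.960 to 1.24% at day 3 and 0.939 to 1.12% at day 7. For Mt2 it was 7.17, 4.98 and 7.49% at day −2, 1.05 to 1.15% at day 1, 1.17 to 1.54% at day 3 and 1.12 to 1.39% at day 7. The libraries as a whole lost labelled share in the same step, so the share was also divided by that of the library.

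Relative to the library, the labelled share of Mt2 in DMSO was 1.84 to 2.39 at day −2, 0.837 to 0.871 at day 1, 1.27 to 1.48 at day 3 and 1.21 to 1.29 at day 7. In ML-792 it was 1.89 to 2.18 at day −2, 0.679 to 0.741 at day 1, 1.29 to 1.36 at day 3 and 2.13 to 2.21 at day 7. Day 1 in ML-792, where total Mt2 was high, was thus the condition with the lowest relative share, and day 7 in ML-792, where total Mt2 was low, had a relative share above all 3 DMSO libraries of that day. Mt1 went the same way, with 0.643 to 0.824 in ML-792 against 0.772 to 1.07 in DMSO at day 1, which overlapped, and 1.36 to 1.52 against 0.979 to 1.04 at day 7, which did not. At day −2 it was 1.40 to 1.51 in ML-792 and 1.27 to 1.73 in DMSO. Total reads are the denominator of the share, so a high total by itself lowers it. For Mt2, DMSO at day 1 and ML-792 at day 7 had close total means (20693 and 19859). Their relative shares were 0.837 to 0.871 and 2.13 to 2.21. These ratios describe a single pulse, and they do not measure RNA stability.

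**Figure D3:**
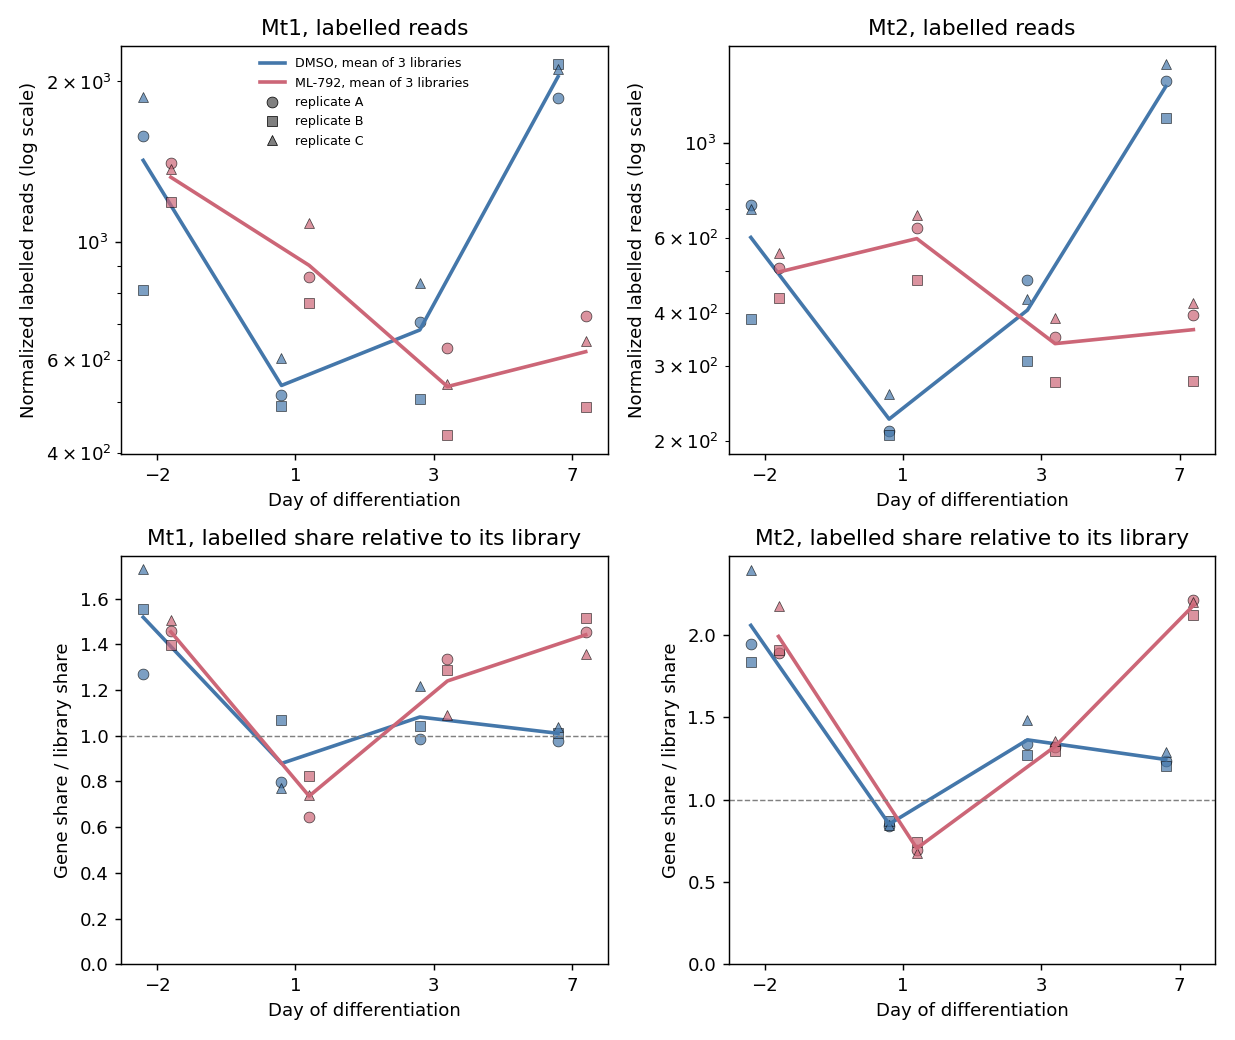
Normalized labelled reads of Mt1 and Mt2 (top, log axis) and the labelled share of each gene divided by that of its library (bottom, dashed line at 1), by day in DMSO and ML-792, with a point per library and lines through the means. At day 7 the ML-792 libraries lie below DMSO in labelled reads and above DMSO in the relative labelled share, which for Mt2 was 2.13 to 2.21 against 1.21 to 1.29.

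Slc30a1 encodes ZnT1, which carries zinc out of the cell and is a known target of MTF1. Its mRNA rose in the control cells by day 7 and was lower there with ML-792, at a much smaller scale than the metallothioneins. Both calls share the DMSO day 7 libraries, and both were lost when any 1 replicate was left out. No difference was called at day 1. Slc30a1 stood at 442, 313 and 329 normalized total reads in DMSO at day −2, at 360, 445 and 440.4 at day 1, at 546, 398 and 345 at day 3, and at 626, 583 and 643 at day 7. In ML-792 it stood at 364, 285 and 351 at day −2, at 405, 357 and 392 at day 1, at 478, 404 and 508 at day 3, and at 477, 382 and 445 at day 7. The DMSO day 7 libraries lay above those of every other condition, and all the other neighbours in the order of means overlapped, from ML-792 at day 3 (463) down to ML-792 at day −2 (334).

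In DMSO Slc30a1 rose by 0.77 ± 0.21 on the log2 scale at day 7 (adjusted p = 0.00653), with 0.20 ± 0.21 at day 1 (adjusted p = 0.543) and with 0.25 ± 0.21 at day 3 (adjusted p = 0.364). This rise was not called when any 1 replicate was left out (adjusted p = 0.0173 to 0.0814). In ML-792 the value at day 3 was 0.48 ± 0.18 (adjusted p = 0.0331) and at day 7 0.38 ± 0.18 (adjusted p = 0.0877). ML-792 against DMSO gave −0.12 ± 0.18 at day −2, −0.11 ± 0.18 at day 1 (adjusted p = 0.871), 0.11 ± 0.18 at day 3 (adjusted p = 0.831) and −0.51 ± 0.18 at day 7, which passed at an adjusted p of 0.0993. The day 7 call lay at the threshold, and it was lost without the filter on low counts (0.363), within the 6 libraries of that day (0.136), in unlabelled reads alone (0.108) and without any 1 replicate (0.164 to 0.465). The interaction was not called (adjusted p = 0.483).

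Mtf1 encodes the factor that senses zinc. Its mRNA was highest at day 3 in both treatments, and no difference between ML-792 and DMSO was called. It stood at 459, 474 and 462 normalized total reads in DMSO at day −2, at 493, 588 and 435 at day 1, at 747, 742 and 764 at day 3, and at 588, 496 and 587 at day 7. In ML-792 it stood at 527, 332 and 476 at day −2, at 545, 422 and 576 at day 1, at 715, 626 and 676 at day 3, and at 567, 466 and 608 at day 7. The DMSO day 3 libraries lay above all others, those of ML-792 at day 3 came next without overlap, and the remaining conditions overlapped with their neighbours, with means from 557 down to 445.

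Against day −2, Mtf1 rose at day 3 by 0.69 ± 0.17 on the log2 scale in DMSO (adjusted p = 0.00311) and by 0.60 ± 0.17 in ML-792 (adjusted p = 0.00579). Both calls were lost without replicate A, without replicate C and without the filter on low counts, with adjusted p up to 0.0958. At day 7 the values were 0.26 ± 0.16 in DMSO (adjusted p = 0.221) and 0.30 in ML-792 (adjusted p = 0.163). ML-792 against DMSO gave 0.03 ± 0.17 at day 1 (adjusted p = 0.979), −0.16 ± 0.17 at day 3 (adjusted p = 0.696) and lastly −0.03 ± 0.17 at day 7 (adjusted p = 0.966), and the interaction an adjusted p of 0.983.

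**Figure D4:**
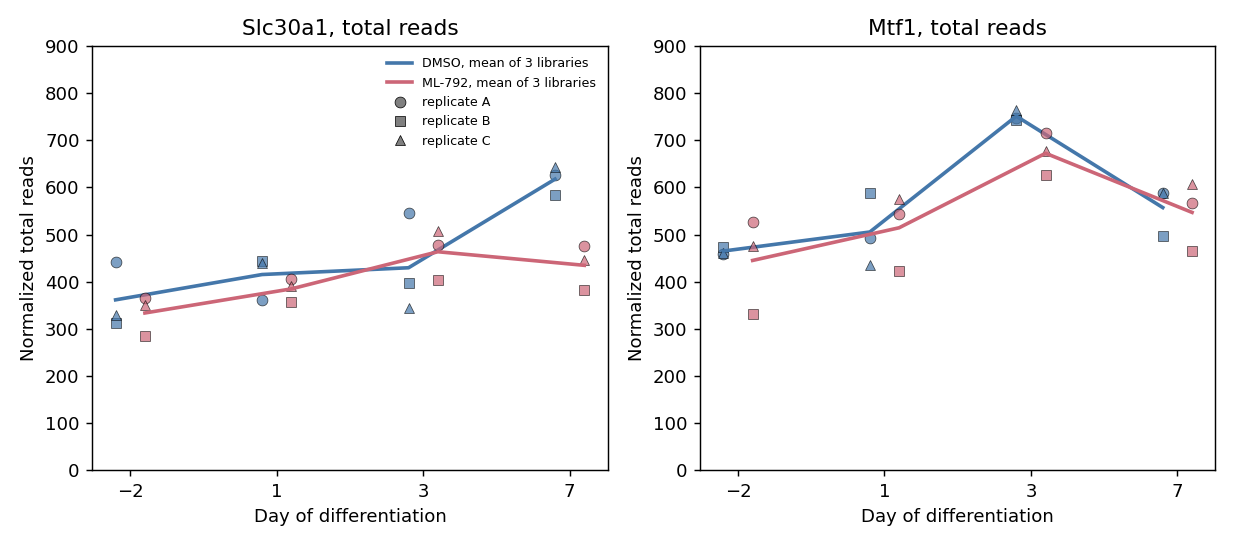
Normalized total reads of Slc30a1 and Mtf1 by day in DMSO and ML-792, with a point per library and lines through the means of 3 replicates. Slc30a1 was highest in DMSO at day 7, at 583 to 643, and Mtf1 was highest at day 3 in both treatments.

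New RNA of both regulators rests on few reads. Slc30a1 had 103, 41 and 61 labelled reads in DMSO at day −2, 19, 11 and 18 at day 1, 32, 2 and 4 at day 3, and 23, 20 and 21 at day 7. In ML-792 it had 34, 60 and 73 at day −2, 16, 22 and 23 at day 1, 15, 10 and 13 at day 3, and 12, 1 and 11 at day 7. Mtf1 had 38 to 44 labelled reads in DMSO at day −2 and 9 to 23, 4 to 7 and 3 to 7 at days 1, 3 and 7, and in ML-792 34 to 55 and then 4 to 10, 5 to 13 and 1 to 5.

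Labelled Slc30a1 fell by 2.04 on the log2 scale at day 1 in DMSO (SE 0.57, adjusted p = 0.005) and by 2.04 at day 3 (SE 0.58, adjusted p = 0.00363), and its value at day 7 was −1.30 ± 0.56 (adjusted p = 0.0482). Labelled Mtf1 had −1.21 ± 0.58 at day 1 (adjusted p = 0.0935) and fell by 2.35 at day 3 (SE 0.64, adjusted p = 0.00224) and fell by 2.56 at day 7 (SE 0.64, adjusted p = 0.00124). Of these 2 genes, 1 was called at day 1 beside 19.7% of all labelled entries, 2 at day 3 beside 34.4% and 1 at day 7 beside 30.2%. On this scale all labelled entries had a median of −1.27, −1.70 and −1.54 on the 3 days, and none of these calls remained when labelled reads were scaled by the labelled reads themselves. With a replicate left out, Slc30a1 ran from −2.13 to −1.86 at day 1 (adjusted p up to 0.0865) and from −3.66 (without A) to −1.68 (without C) at day 3 (adjusted p up to 0.0639), and Mtf1 had adjusted p up to 0.0566 at day 3 and 0.0203 at day 7.

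For ML-792 against DMSO, labelled Slc30a1 gave 0.59 ± 0.57 at day 1 (adjusted p = 0.769), 0.08 ± 0.60 at day 3 (adjusted p = 0.991) and lastly −1.20 ± 0.61 at day 7 (adjusted p = 0.449). Labelled Mtf1 gave −0.87 ± 0.60 at day 1 (adjusted p = 0.638), 0.78 ± 0.64 at day 3 (adjusted p = 0.754) and lastly −0.79 ± 0.76 at day 7 (adjusted p = 0.728). Over all labelled entries 0.888%, 0.916% and 0.869% were called at days 1, 3 and 7. At day −2 it was 0%: edgeR called 0 of 10589 entries and DESeq2 also 0, with 75 entries at an unadjusted p under 0.05 in edgeR. With SEs of 0.57 to 0.76, a difference of the size found for total Slc30a1 at day 7 was not detectable at this depth.

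The other metallothionein genes had few reads. Mt3, the form best known from brain, had 1 read in 1 library and 0 in the rest. Mt4, the form best known from stratified epithelium, had 0 to 2 reads per library in 7 conditions and 5 to 9 in the 3 ML-792 libraries of day 1. These libraries did not overlap with the others, but the counts are too low to have been tested.

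Zinc transporters come in families of exporters, Slc30a, which lower zinc in the cytosol, and importers, Slc39a, which raise it. Of 24 listed, 18 passed the filter on low counts in total reads (6 of 10 exporters and 12 of 14 importers), and those that did not pass were Slc30a2, Slc30a3, Slc30a8, Slc30a10, Slc39a5 and Slc39a12. At day 7 in DMSO 3 of the 18 rose and 3 fell, a share near the 32.6% called over all entries, with a median of 0.15 beside −0.06. Slc30a9 rose by 1.38 ± 0.17 (adjusted p = 6.06e-06) beside Slc30a1, while Slc39a6 fell by 1.70 (SE 0.18, adjusted p = 1.46e-06), as did Slc30a7 (−1.02) and Slc39a13 (−0.60). Slc39a4, the importer of dietary zinc in the gut, went from 0 to 3 reads per library at day −2 to 40 to 81 at day 7.

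At day 1 in DMSO 1 of the 18 rose, Slc39a14, an importer of zinc and iron, and 2 fell, Slc39a13 and Slc39a8, beside 13.7% called over all entries. Slc39a14 rose by 2.12 ± 0.20 on the log2 scale (adjusted p = 1.88e-06), from a mean of 268 normalized reads at day −2 to 1164 at day 1, and stood at 472 and 366 at days 3 and 7. In ML-792 its means were 256, 796, 167 and 321 in the same order. With ML-792 it was lower at day 1 (−0.55 ± 0.16, adjusted p = 0.0529), and more so by value at day 3 (−1.50 ± 0.17, adjusted p = 1.38e-06).

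ML-792 against DMSO thus called 1 of the 18 transporters at day 1 (Slc39a14, lower) where 6.55% of all entries were called, with a median of −0.20 beside 0. At day 3 it called 5 beside 12.9% of all entries, of which Slc39a13 (0.62 ± 0.14) and Slc39a2 were higher and Slc39a14, Slc39a3 (−0.55) and Slc39a4 (−2.84 ± 0.87) lower, with a median of −0.05 beside 0.02. Slc39a2 rests on 0 to 3 reads per library in DMSO and 19 to 35 in ML-792. At day 7 it called 4 beside 9.6% of all entries, all lower: Slc30a1, Slc30a9 (−0.53 ± 0.14, adjusted p = 0.0152), Slc30a4 (−0.52 ± 0.18, adjusted p = 0.0982) and Slc39a4 (−2.58 ± 0.88, adjusted p = 0.0828), with a median of −0.10 beside 0. The day 7 number was 1 without the filter on low counts and 0 without replicate C, and the day 1 number was 0 without A or C.

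**Figure D5:**
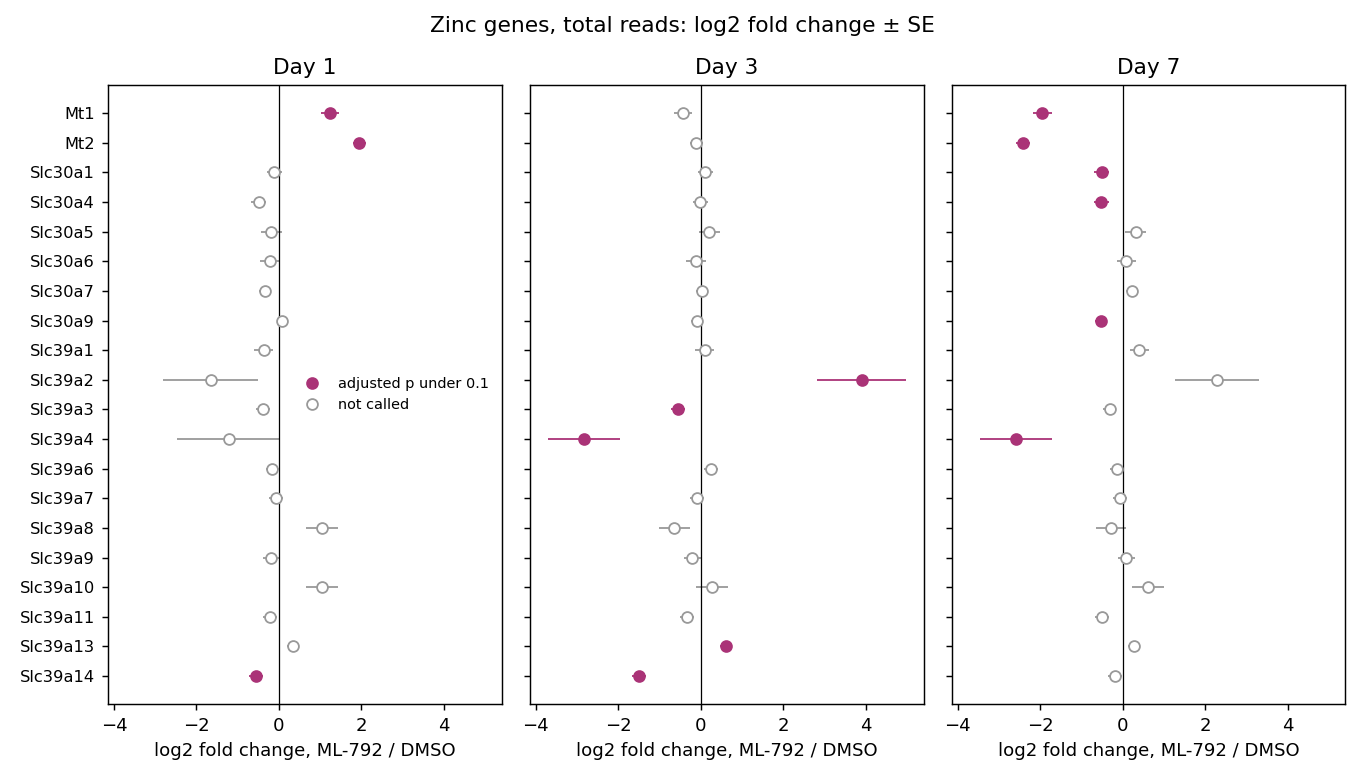
Log2 fold change ± SE of ML-792 against DMSO in total reads for Mt1, Mt2 and the 18 tested zinc transporters at days 1, 3 and 7, with filled points at an adjusted p under 0.1. Mt2 and Mt1 lie at 1.95 and 1.25 at day 1 and at −2.41 and −1.94 at day 7, while the median of the transporters was −0.20 and −0.10 on those days.

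In labelled reads 13 of the 24 transporters were tested. In DMSO 3 of them were lower than at day −2 at day 1 (Slc30a1, Slc30a4 and Slc39a7), 4 at day 3 and 3 at day 7, shares near the 19.1%, 32.6% and 28.4% called lower over all labelled entries. With ML-792 the medians over the 13 were 0.05, −0.26 and −0.74 at days 1, 3 and 7, beside −0.30, −0.08 and −0.37 over all labelled entries.

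Genes whose total reads ran most like those of the metallothioneins were looked up over the 24 libraries among 13330 genes. The libraries share depth, treatment and day, so Pearson's r is a description. For Mt1 the closest were Mt2 (0.956), Pfkp (0.895), Mreg (0.879), Sun2 (0.877) and Slc22a20 (0.838), and for Mt2, after Mt1, they were Rasl12 (0.880), Mreg (0.856), Krt19 (0.852) and Alpl (0.850). Slc30a1 correlated with Mt1 at 0.656 and stood at rank 172 by that measure, and Mtf1 at 0.210. The closest to Slc30a1 were Smyd1 (0.858), Ankzf1 (0.837), Ccdc47 (0.824), Arih2 (0.820) and Gpi1 (0.814), and those to Mtf1 were Tomm22 (0.909), Polr2c (0.909), Zbed4 (0.904), Baz1a (0.904) and Pitpnb (0.893). In labelled reads over 6433 genes, Mt1 was closest to Mt2 (0.897), Ftl1 (0.832), Ero1l (0.827), Mid1ip1 (0.787) and Cryab (0.776), and Mt2, after Mt1, to Ftl1 (0.730), Ero1l (0.721), Lgals3 (0.708) and Gm14322 (0.679). The likeness of labelled Mt1 and Mt2 rests on the values that chose both. By Spearman's rho over the 24 libraries each stood at rank 2 for the other in total reads (0.919), and over the 8 condition means labelled Mt2 stood at rank 9 for Mt1. Slc30a1 stood at rank 910 for Mt1 by rho in total reads (0.562). Seen from Slc30a1, Mt1 stood at rank 603 by Pearson's r.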

How the data were processed

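The authors labelled RNA with 4-thiouridine and prepared QuantSeq 3′ mRNA libraries, which SlamDunk mapped to mm10. They deposited raw counts of all reads and of labelled reads with T to C conversions per RefSeq 3′UTR entry, without normalization. Libraries were assigned by sample title, and 6 library columns per table that match no sample were not used.

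Tests ran in R 4.3.3 with limma 3.58.1, edgeR 4.0.16 and the data.table package (version 1.17.8), and figures in Python 3.11.15 with matplotlib 3.10.9. TMM factors of the total counts also scaled the labelled counts, as the study's methods scale labelled by total reads. Entries were kept by filterByExpr (minimum count 10, minimum total 15). The robust quasi-likelihood model used 12 DMSO libraries for the control time course and all 24 for ML-792, with the 8 conditions as groups and no block. Log2 values for correlations used a prior count of 2. DESeq2 1.42.0 was an alternative. The code was tested on simulated data. The 4 genes, the metal lists and the motifs were chosen with earlier results of these data known. Genes named beyond them are list members past a test, list members left untested, cell markers, the 5 most alike per gene, and, chosen after their values were seen, the next genes in the labelled ranking and neighbours within 250000 bases. Intervals and SEs take no account of PCR duplicates, since reads carried no molecular identifiers.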

Additional observations from a re-analysis of the deposited data

Results flagged for a closer look

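For both metallothioneins the effect of ML-792 on total reads differed between days, by the interaction terms of edgeR's model. Relative to day −2, the log2 effect at day 1 was higher by 1.98 ± 0.22 for Mt2 (adjusted p = 1.76e-05) and by 1.11 ± 0.30 for Mt1 (adjusted p = 0.0827). At day 7 the term was −2.38 ± 0.23 for Mt2 (adjusted p = 7.51e-07) and −2.08 ± 0.31 for Mt1 (adjusted p = 0.000259). Both genes were chosen for this pattern in the labelled reads of the same libraries.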

How the results depend on the processing

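Over 113 results, 845 of 989 values under an alternative kept their direction and side of the threshold, or for counts and untested values stayed close. The Mt2 and Mt1 differences between ML-792 and DMSO at day 7, the Mt2 difference at day 1 and the F-tests of both genes passed under every alternative run. The Mt1 rise at day 1 in DMSO was called with no filter on low counts (0.75) and with the replicate letter as a block (0.76), and ran from 0.67 to 0.83 with a replicate left out. Mt1 at day 7 in ML-792 was called in DESeq2 (0.73), with no filter (0.68), with the block (0.66) and in unlabelled reads alone (0.72), and ran from 0.57 to 0.81 with a replicate left out. With a replicate left out, Mt1 in ML-792 against DMSO at day 1 ran from 1.24 to 1.27, its interaction term at day 1 from 0.97 to 1.30, and the Mt2 rise at day 1 in DMSO from 1.135 to 1.30. The labels do not say what a letter stands for, although the library numbers run letter by letter. Not every same-letter pair deviated together, so no pairing was assumed. Deviations correlated above 0.1 in 68 of 84 same-letter pairs and 20 of 168 other pairs in total reads, and in 22 of 84 and 0 of 168 in labelled reads. This is a hint from the data and not from a stated design. With the letter as a block, 3594 entries were called in total reads for ML-792 against DMSO at day 1 beside 1741 without it. At day 7 it was 4841 beside 2550. Differences said not to pass were thus judged by the fit that called fewer entries.

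Numbers of called list genes depended more on the setting, as did the calls over all entries. For ML-792 against DMSO at day 1 these were 1741 of 26563 in the model used above and 2304 in DESeq2. They were 1632 of 55214 with no filter, 1067 within the day, 3594 with the block and 450 to 2186 with a replicate left out. At day 7 they were 2550, with 2353 with no filter, 2065 within the day and 766 to 3373 with a replicate left out. Zinc transporters called at day 1 in ML-792 against DMSO were 3 in DESeq2, 0 with no filter, 0 within the 6 libraries of the day and 5 with the block, and 0 to 3 with a replicate left out. At day 7 they were 1 with no filter, 1 within the day and 0 to 5 with a replicate left out, at day 3 they were 1 to 4, and for DMSO at day 7 they were 3 to 6. Copper genes called at day 7 in ML-792 were 1 with no filter, 1 within the day and 0 to 1 with a replicate left out, and for DMSO at day 7 they were 1 to 4. Iron genes called at day 7 in ML-792 were 0 to 3.

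Signs turned where labelled reads were scaled by the labelled reads themselves: labelled Mt1 in DMSO at day 3 (0.50), Mt2 at day 3 (0.99), Mtf1 at day 1 (0.041), Slc30a1 at day 7 (0.17), and Mt1 in ML-792 against DMSO at day −2 (0.10, and −0.31 to 0.12 with a replicate left out). That scaling takes out the fall in labelled share common to the libraries. Small differences between ML-792 and DMSO also turned, for Mtf1 at day 1 (−0.16 to 0.27 with a replicate left out) and for Slc30a1 at day 3 (−0.10 to 0.30). The cause of the other changes was not tested. No other entry of these genes was tested, so that alternative could not be run. Labelled counts of Slc30a1 and Mtf1, down to 1 read, limit what their new RNA can show.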

Other observations

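Among 8 tested copper genes, Sod1, the copper and zinc superoxide dismutase, rose in DMSO by 2.60 ± 0.20 on the log2 scale at day 7 (adjusted p = 4.94e-08), and so did Atox1 (1.01), while Atp7a was lower (−0.94). Over all entries 32.6% were called in that comparison. With a replicate left out, adjusted p went up to 0.0137 for Atox1 and 0.0558 for Atp7a. The copper transporter gene Slc31a2 was higher in ML-792 than in DMSO at day 1 (1.33 ± 0.29, adjusted p = 0.00513), day 3 (2.21 ± 0.29, adjusted p = 1.1e-05) and day 7 (1.21 ± 0.29, adjusted p = 0.00829). Of all entries 6.55%, 12.9% and 9.6% were called on these days. Sod1 was lower at day 7 (−0.50, adjusted p = 0.0525). This call was lost when any 1 replicate was left out (edgeR adjusted p = 0.187 to 0.330). Slc31a2 then had adjusted p up to 0.161 at day 1, 0.0126 at day 3 and 0.143 at day 7.

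Among 8 tested iron genes, Slc40a1, which encodes the iron exporter ferroportin, was lower in DMSO at day 7 (−4.48 ± 0.29), and Tfrc (1.72), Aco1 (2.16) and Slc11a2 (0.73) rose. The share called over all entries was again 32.6%. With a replicate left out, adjusted p went up to 0.0498 for Slc11a2. Slc40a1 was higher with ML-792 at day 1 (2.02 ± 0.29, adjusted p = 6.06e-05) and day 3 (1.92). As for the copper genes, 6.55%, 12.9% and 9.6% of all entries were called between the treatments at days 1, 3 and 7. Tfrc and Fth1 were also called higher at day 3. With a replicate left out, Tfrc ran there from 0.81 to 1.25 (edgeR adjusted p up to 0.0736) and Fth1 from 0.62 to 0.70 (up to 0.234). At day 7 Tfrc was higher (0.62, adjusted p = 0.0734) and Hmox1, which encodes heme oxygenase, lower (−1.12, adjusted p = 0.0441). Neither call held throughout with a replicate left out. Tfrc then ran from 0.50 to 0.76 (edgeR adjusted p up to 0.448) and Hmox1 from −1.69 to −0.86 (up to 0.468).

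Of the tested neighbours within 250000 bases of Mt1 and Mt2, Herpud1, a gene of the endoplasmic reticulum stress response, went the same way as both at day 7. It rose in DMSO by 0.84 ± 0.17 (adjusted p = 0.000749) and was lower with ML-792 (−1.30 ± 0.15, adjusted p = 1.94e-06), 2 comparisons that share the DMSO day 7 libraries, whereas its difference at day 1 was −0.07 ± 0.15 (adjusted p = 0.913). Gnao1 (−1.02) and Nup93 (−0.90) fell in DMSO by day 7, and no other neighbour was called between the treatments at day 1 or day 7.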
